A study of Rattus norvegicus with 6 samples.

Results

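The genes described here are 10 components of the calcium store of the muscle cell: the ryanodine receptors Ryr1, Ryr2 and Ryr3, the inositol trisphosphate (IP3) receptors Itpr1, Itpr2 and Itpr3, the calcium pumps Atp2a1 and Atp2a2, and the luminal calcium buffers Casq1 and Casq2. They were found by symbol in 4 lists of genes with a peak of trimethylated lysine 27 on histone H3 (H3K27me3), and all 10 had exactly 1 entry. Any of the 4 lists held 22427 genes, of which 1860 carried no symbol. A gene with no entry by symbol may be among those. The lists come from chromatin immunoprecipitation and sequencing of primary heart muscle cells of newborn Sprague Dawley rats, cultured with serum and given 5 mM α-ketoglutarate (α-KG) or, as the control, phosphate-buffered saline (PBS) for 24 h. There were 2 libraries per group, the controls PBS 1 and PBS 2 and the treated α-KG 1 and α-KG 2, and 2 input samples labelled IgG were not analysed here. The labels do not say whether the replicates were separate cultures or how many animals were pooled. Each list states only that a gene had a peak, so read depth, peak strength and peak position are unknown. A gene missing from a list may lack the mark or may lie below detection, and a mark in fewer cells cannot be told apart from a weaker mark.

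In each heartbeat, calcium that enters through the L-type channel of the surface membrane opens ryanodine receptors in the sarcoplasmic reticulum, and the released calcium starts contraction. The pump SERCA then returns calcium to the store, where calsequestrin binds it. IP3 receptors are a related family of release channels that open after hormone signals through phospholipase C. H3K27me3 is placed by Polycomb repressive complex 2 on genes kept silent, most often at CpG-rich promoters, and it is removed by demethylases that use α-KG as a cosubstrate.

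Of the 10 genes, 8 were listed in all 4 libraries, and the 2 exceptions were Ryr2 and Atp2a1. Ryr2 was listed in PBS 1 and PBS 2 and was absent from both α-KG lists. Atp2a1 was listed in α-KG 2 and in no other library. PBS 1, PBS 2, α-KG 1 and α-KG 2 thus held 9, 9, 8 and 9 of the 10 genes, a control mean of 9 ± 0 and an α-KG mean of 8.5 ± 0.707 (SD over 2 libraries). The 2 groups overlapped in this count. The genes were selected on their listing in these libraries, with the pattern of Ryr2 known, so the listings are given as a description with no test. For comparison, 62.8% of all 22427 listed genes were in all 4 libraries, 2.30% were in both controls and neither α-KG library, 3.25% showed the reverse, and 6.96% were in α-KG 2 alone. The 4 lists held 76.9%, 82.2%, 80.8% and 85.5% of the listed genes in the same order, so α-KG 2 had the longest list.

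**Figure D1:**
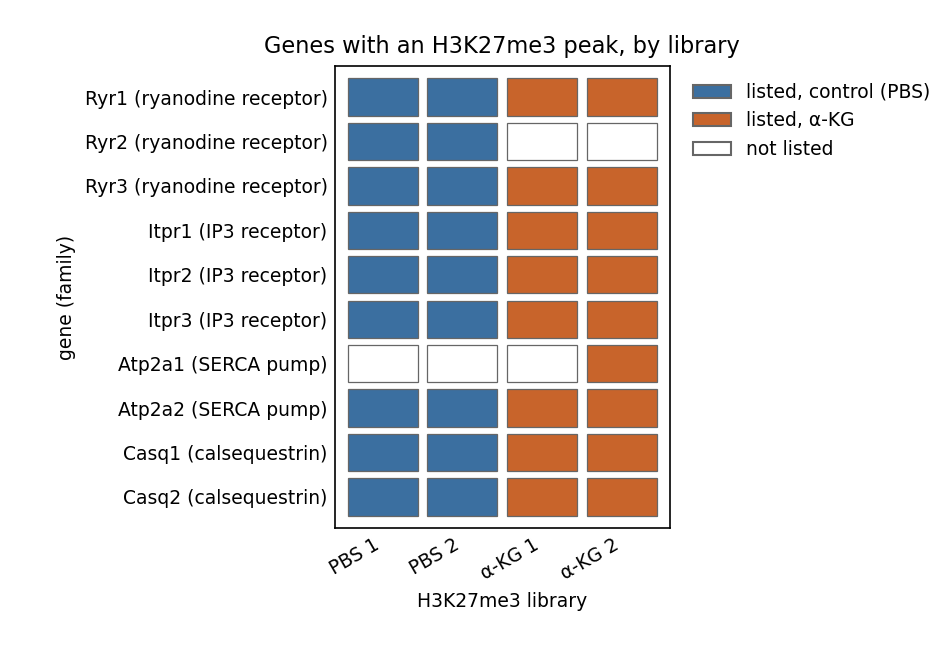
Listing of the 10 genes (rows, with their family) in the 4 H3K27me3 libraries (columns), where a filled cell means that the library lists the gene with a peak. Ryr2 is filled in the 2 control libraries alone, Atp2a1 in α-KG 2 alone, and the other 8 genes are filled in all 4.

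Ryr2 encodes the main calcium release channel of heart muscle, and it was the 1 ryanodine receptor of 3 whose listing divided the groups. Ryr1, the release channel of skeletal muscle, was listed in PBS 1, PBS 2, α-KG 1 and α-KG 2. Ryr3, a form with wider expression at low levels, was listed in the same 4 libraries. The control lists therefore named all 3 receptors and each α-KG list named 2. Among the 16005 genes that both controls listed, 3.22% shared the pattern of Ryr2. The promoters of the 3 genes are shown because the family differs in listing although its members encode closely related channels. Each run is the 250 bases before the RefSeq start site in assembly GRCr8, 5′ to 3′ on the strand of the gene, with CpG dinucleotides in capitals. Ryr1 and Ryr3 lie on the minus strand and Ryr2 on the plus strand of that assembly.
Ryr2: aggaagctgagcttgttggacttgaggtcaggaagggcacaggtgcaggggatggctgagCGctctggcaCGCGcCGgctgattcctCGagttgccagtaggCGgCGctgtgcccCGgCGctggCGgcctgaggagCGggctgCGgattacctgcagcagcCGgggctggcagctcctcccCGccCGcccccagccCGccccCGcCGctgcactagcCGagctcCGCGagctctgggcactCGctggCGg
Ryr1: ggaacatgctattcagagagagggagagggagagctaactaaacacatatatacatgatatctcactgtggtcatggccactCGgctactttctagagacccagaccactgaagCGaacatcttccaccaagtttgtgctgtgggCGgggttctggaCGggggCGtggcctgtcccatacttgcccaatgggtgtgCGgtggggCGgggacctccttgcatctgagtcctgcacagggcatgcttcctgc
Ryr3: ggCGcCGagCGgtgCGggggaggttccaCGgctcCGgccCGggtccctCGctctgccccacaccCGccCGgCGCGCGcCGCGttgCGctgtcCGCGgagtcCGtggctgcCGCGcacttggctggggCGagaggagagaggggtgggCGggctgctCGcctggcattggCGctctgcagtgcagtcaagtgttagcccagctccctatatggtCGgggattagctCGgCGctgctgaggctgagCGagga

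By base composition, the Ryr2 promoter resembled that of Ryr3 more than that of Ryr1. The counts below cover the whole RefSeq window of 300 bases, from 250 before to 50 after the start. Ryr2 had 28 CpG dinucleotides and 73.0% G or C, more CpG than 82.4% of 19005 protein-coding genes with such a window. Ryr3 had 31 CpG, more than 87.2% of the windows, and Ryr1 had 10 CpG, more than 45.0%. The receptor listed in the controls alone thus lay between its relatives in CpG count. The lists do not say whether the peak at any of these genes lay at the promoter.

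Protein-coding genes with the listing of Ryr2 and a promoter window mostly had few CpG at the start site, and Ryr2 stood near the top of them. The median window held 4 CpG (quartiles 1 and 13) over 267 genes listed in both controls and neither α-KG library. It held 20 CpG (quartiles 9 and 30) over 8352 genes listed in all 4 libraries. Both sets cover only protein-coding genes matched by symbol to a full window. In the lists themselves, 516 genes had the first pattern and 14077 were in all 4 libraries, so many are not covered. Ryr2, with 28, exceeded 95.5% of the 267 genes with its pattern and a window. Its CpG count was above the median of the genes listed in every library. Genes in both α-KG libraries but no control had a median of 15 CpG (444 genes), and protein-coding genes with no matched entry had 4 (5831 genes, renamed ones included). These are reference properties of genes that are not independent of each other, and no test was made.

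**Figure D2:**
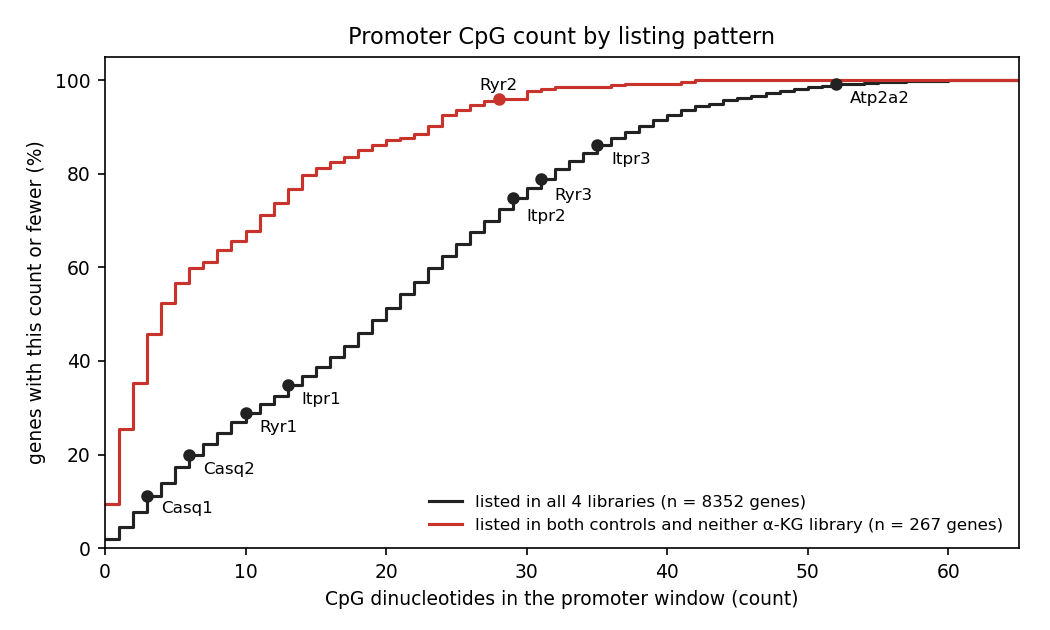
Cumulative share of genes (vertical axis, percent) by the number of CpG dinucleotides in the promoter window (horizontal axis), for protein-coding genes matched to a window. Black shows 8352 genes listed in all 4 libraries, and red shows 267 genes listed in both controls and neither α-KG library. Points mark 9 of the 10 genes on the curve of their own pattern: Ryr2 sits at 28 CpG near the upper end of the red curve, and Atp2a1, in α-KG 2 alone, belongs to neither curve and is not drawn.

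The listing of the 3 IP3 receptor genes did not differ among libraries. Itpr1, the main form of brain, Itpr2, the main form of heart muscle cells, and Itpr3, prominent in epithelial cells, were each listed in PBS 1, PBS 2, α-KG 1 and α-KG 2. Their promoters differed in CpG count, while a listing gives no strength of the mark that could be set beside it. Itpr1 had 13 CpG per window, Itpr2 had 29 and Itpr3 had 35, which exceeded 51.2%, 84.1% and 91.7% of all windows. The listing of this family was the same at all 3 CpG counts.

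The pumps formed the other family with unlike listing. Atp2a2, which encodes SERCA2, the pump of heart muscle, was listed in all 4 libraries. Atp2a1, which encodes SERCA1 of fast skeletal muscle, was listed in α-KG 2 and was absent from PBS 1, PBS 2 and α-KG 1. The α-KG replicates differ for Atp2a1, so its listing does not divide the groups, and an absent listing may be a missed detection. Atp2a3, which encodes SERCA3 and was not among the 10 genes, was listed in all 4. The 2 promoters are shown because they lie near opposite ends of the CpG range, with the same conventions as above. Atp2a1 lies on the minus strand and Atp2a2 on the plus strand.
Atp2a2: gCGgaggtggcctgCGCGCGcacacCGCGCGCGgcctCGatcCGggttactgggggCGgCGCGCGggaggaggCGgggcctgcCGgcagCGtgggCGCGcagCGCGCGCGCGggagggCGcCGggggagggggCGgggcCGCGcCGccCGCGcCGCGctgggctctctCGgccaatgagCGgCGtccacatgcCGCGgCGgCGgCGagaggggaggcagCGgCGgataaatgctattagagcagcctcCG
Atp2a1: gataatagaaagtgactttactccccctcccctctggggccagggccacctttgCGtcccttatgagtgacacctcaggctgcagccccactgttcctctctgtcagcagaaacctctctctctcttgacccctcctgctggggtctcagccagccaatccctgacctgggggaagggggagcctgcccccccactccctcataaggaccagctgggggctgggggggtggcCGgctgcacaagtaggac

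The Atp2a2 window held 52 CpG, more than 99.4% of all windows, and the ratio of observed to expected CpG was 1.12. The Atp2a1 window held 3 CpG, more than 18.0% of windows, with a ratio of 0.108. Both windows were rich in G and C (79.0% for Atp2a2 and 61.0% for Atp2a1), so they differed more in CpG than in G and C content. Of these 2 pump genes, Atp2a2, with dense CpG, was listed in all 4 libraries. Casq1, with 3 CpG as in Atp2a1, was also listed in all 4, and a link between CpG count and listing was not tested.

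The calsequestrin genes were listed throughout although their promoters held few CpG. Casq2, the calsequestrin of heart muscle, and Casq1, that of fast skeletal muscle, were each present in all 4 lists. Casq1 had 3 CpG, the same count as Atp2a1, and Casq2 had 6, more than 34.0% of windows. The Casq2 promoter is shown as the least G- and C-rich of the 10 (47.7%), with the same conventions, on the plus strand.
Casq2: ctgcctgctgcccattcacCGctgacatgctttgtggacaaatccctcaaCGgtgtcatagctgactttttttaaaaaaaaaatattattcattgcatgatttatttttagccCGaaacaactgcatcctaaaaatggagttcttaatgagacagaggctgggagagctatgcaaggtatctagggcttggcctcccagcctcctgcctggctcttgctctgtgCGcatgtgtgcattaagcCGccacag

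Over the 10 genes, the CpG count ran from 3 (Atp2a1 and Casq1) to 52 (Atp2a2), and the 2 genes with partial listing lay at 3 and 28. The GC box GGGCGG, which holds a CpG itself and is a known motif of Sp1, was found on either strand in 7 of the 10 windows. It was found in 43.2% of all 19005 windows. Ryr2 had it, and Atp2a1, Itpr1 and Casq2 did not. The letters TATAAA occurred on neither strand in any of the 10 windows and in 13.1% of all. A match or its absence describes these letters in this window alone.

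**Figure D3:**
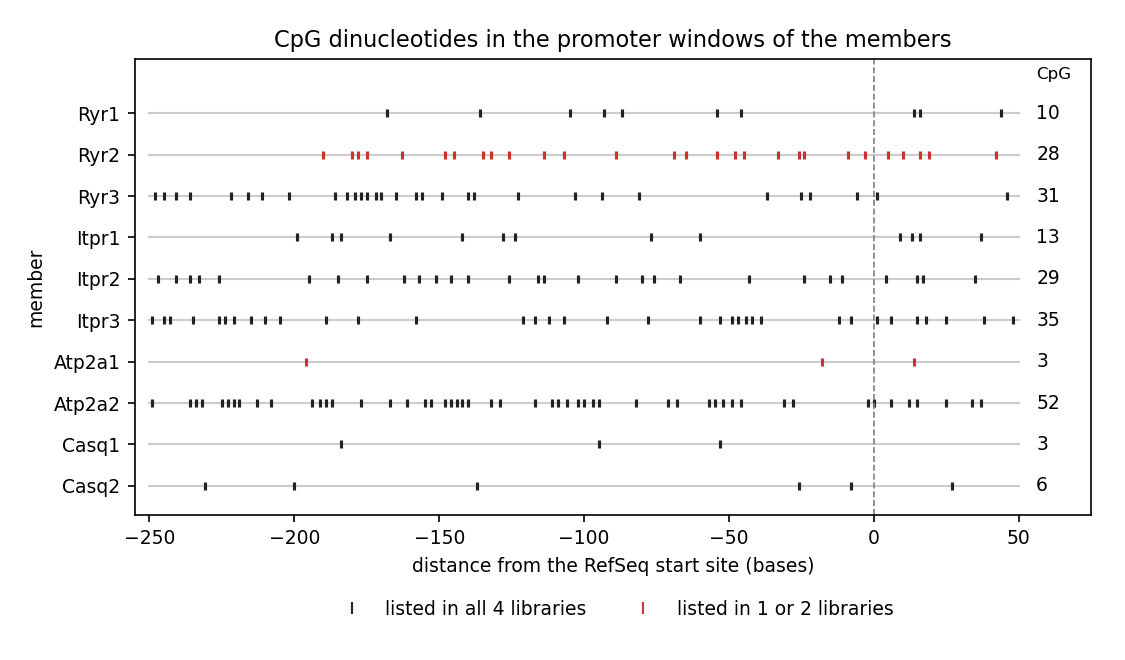
Positions of CpG dinucleotides (ticks) in the promoter windows of the 10 genes (rows), by distance from the RefSeq start site in bases, with the count per window at the right. Red ticks belong to Ryr2 and Atp2a1, which were listed in 2 and 1 of the 4 libraries. Their windows hold 28 and 3 CpG, while the genes listed in all 4 span 3 to 52.

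Most neighbours of Ryr2 in gene order were listed in all 4 libraries. Broad H3K27me3 domains can cover adjacent genes, so the protein-coding genes on each side were read in the order of assembly GRCr8. On the side beyond the end of Ryr2, the 3 nearest genes were Zp4 (an egg coat protein), Chrm3 (a muscarinic acetylcholine receptor) and Zmynd11 (a chromatin reader), and all were listed in all 4 libraries. On the side of its start, Actn2, the α-actinin of the Z-disc, was listed in all 4. Mtr (methionine synthase), which is closer on that side, was listed in PBS 2 and α-KG 2. The nearest gene there, LOC120097928, had no matching entry. Of the 5 neighbours with an entry, 4 were in all 4 libraries and 0 had the listing of Ryr2. With 5 genes per side, 6 of the 8 with an entry were in all 4 and 0 were in both controls and neither α-KG library. Of the 16167 protein-coding genes of the reference with an entry, 64.2% were in all 4 and 1.95% had the pattern of Ryr2, so these counts are near the background.

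The neighbours of Atp2a1 were listed in different sets of libraries. On 1 side, Atxn2l was in all 4 libraries, and Sh2b1 (a signalling adaptor) and Tufm (a mitochondrial elongation factor) were in PBS 2, α-KG 1 and α-KG 2. Of the 6 genes on both sides, 5 had an entry, of which 1 was in all 4 and none was in α-KG 2 alone. With 5 genes per side, 2 of the 8 with an entry were in all 4, and Spns1 was in α-KG 2 alone, as Atp2a1 was. Of the 16167 reference genes with an entry, 64.2% were in all 4, and nothing is read from neighbour counts this small.

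Over all 10 genes, 49 of the 60 neighbours had an entry and 26 of these (53.1%) were in all 4 libraries, beside the 64.2% of reference genes given above. The surroundings ranged from Casq2, where all 5 neighbours with an entry were in all 4, to Atp2a1 with its 1 of 5. Casq1 was itself listed in all 4 although just 1 of its 4 neighbours with an entry was. Of the 49, 2 were in both controls and neither α-KG library: Fmn1 (a formin) beside Ryr3 and Bak1 (an apoptosis effector) beside Itpr3. Another 4 had the reverse pattern: Emc7 beside Ryr3, Arpc3 beside Atp2a2, and Dcaf8 and Pea15 beside Casq1. Of the 16167 reference genes with an entry, 1.95% and 3.28% had these patterns. The genes beside which these 6 lie were all listed in all 4.

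**Figure D4:**
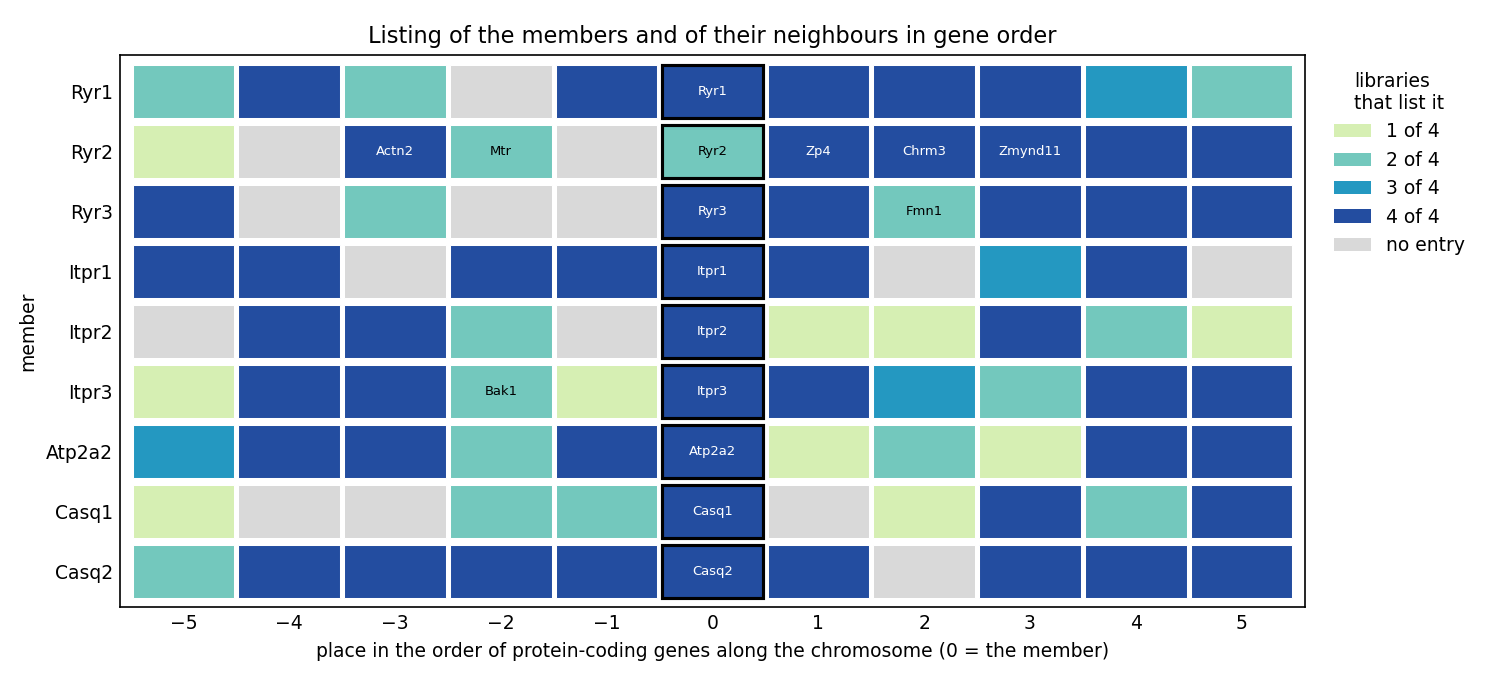
Listing of 9 of the 10 genes (centre column, outlined; Atp2a1 is not drawn) and of the 5 protein-coding genes on each side in the order of assembly GRCr8, where colour gives the number of the 4 libraries that list a gene grey marks genes with no matching entry, and names are given for the neighbours discussed. In the row of Ryr2, which 2 libraries list, the 5 genes to the right are all listed in 4 of 4.

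Protein domain names in the lists tie Ryr2 to its relatives by a feature of the protein. The RyR/IP3R homology domain occurred in 5 entries (Ryr2, Ryr3, Itpr1, Itpr2 and Itpr3), of which 4 were in all 4 libraries and Ryr2 was the other. The MIR motif occurred in 10 entries, among them Pomt1 and Pomt2 (protein mannosyltransferases), Sdf2 and Sdf2l1. PBS 1, PBS 2, α-KG 1 and α-KG 2 named 6, 7, 6 and 9 of these 10, and Ryr2 was the 1 entry in both controls and neither α-KG library. Of 98 entries with an ion transport domain, the pore module of voltage-gated and related channels, 84 (85.7%) were in all 4, and Ryr2 was the 1 with its pattern. In other domains of Ryr2 it was not alone: 3 of 203 EF-hand entries (Cetn1, S100a7a and Ryr2) and 4 of 184 entries of the concanavalin A-like superfamily (Cntnap5c, Lgals5, Mep1a and Ryr2) had the pattern. Of all listed genes, 62.8% were in all 4 libraries and 2.30% had the pattern of Ryr2. Since Ryr2 was chosen for its pattern, nothing is read from these counts. Among ion transport domain entries, Cacna1s and Trpm4, a calcium-activated cation channel, showed the reverse.

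The 34 entries with the cation-transporting P-type ATPase domain, the family of Atp2a1 and Atp2a2, were listed in the order given as 27, 30, 29 and 31. Of them, 25 (73.5%) were in all 4 libraries and 0 had the pattern of Ryr2, beside 62.8% and 2.30% of all listed genes. Atp9a, a phospholipid flippase, was in both α-KG libraries but no control. The calsequestrin domain name occurred in 4 entries: Casq1 and Casq2, in all 4 libraries, and the endoplasmic reticulum chaperones Erp44 and Pdia4, in α-KG 2 alone. These domains were looked up because the 10 genes carry them, and the genes named from them were chosen after their listing was seen.

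The other genes of calcium handling were taken from a list of 100 genes in 11 roles. Of these, 94 had an entry, 76 of them in all 4 libraries (80.9% of 94, against 62.8% of all listed genes). PBS 1, PBS 2, α-KG 1 and α-KG 2 named 84, 87, 82 and 90, a control mean of 85.5 ± 2.12 and an α-KG mean of 86 ± 5.66 (SD over 2 libraries). The difference of 0.5 genes was smaller than the spread within either group and changed sign with the library left out, from -3.5 without α-KG 2 to 4.5 without α-KG 1. One gene, Cav3, was in both controls and neither α-KG library, and 2 genes, Tmem38a and Cacna1s, were in both α-KG libraries but no control. Set beside the 2.30% and 3.25% of all listed genes with these patterns, such counts are near the background.

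Cav3, the muscle caveolin, which helps to shape the membrane tubules that face the ryanodine receptors, was the gene most like Ryr2. It had the same listing in 4 of 4 libraries, the 1 gene to do so among the 103 others with an entry on both lists. Of all listed genes, 2.30% had this listing, so 1 match is near the background and nothing is read from it. Another 7 matched Ryr2 in 3 libraries, and 86 of the 103 matched it in 2. The share of all listed genes that match Ryr2 in 3 libraries is not given here. Cacnb2 (a subunit of the L-type channel), Calr (calreticulin, a calcium buffer of the endoplasmic reticulum), Chga (chromogranin A), Hrc (a calcium-binding protein of the store) and Orai1 (a store-operated channel) were in PBS 1, PBS 2 and α-KG 2. Camk2a (a calcium-dependent kinase) and Plcb1 (a phospholipase that makes IP3) were in PBS 1, PBS 2 and α-KG 1. The 2 α-KG libraries thus lacked different genes among these 7. Ryr2 and Cav3, absent from both, were set together here by that listing, so their shared absence is no separate result.

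**Figure D5:**
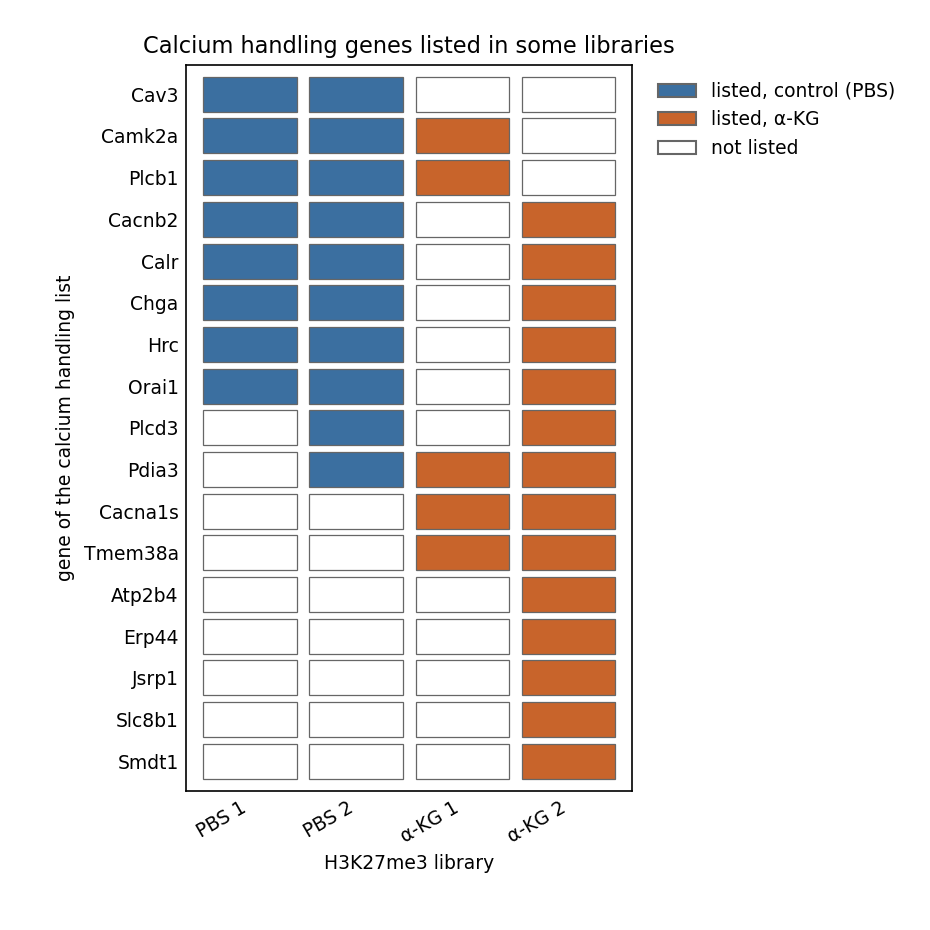
Listing of 17 of the 18 calcium handling genes with an entry in 1 to 3 of the 4 libraries (rows) by library (columns), where a filled cell means listed. Cav3 is filled in both controls alone, Cacna1s and Tmem38a in both α-KG libraries alone, and 5 genes in α-KG 2 alone.

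Of the genes of 15 proteins that bind the release channel, 14 had an entry, and 85.7% of the 14 were in all 4 libraries. Of all listed genes, 62.8% were. Of 15 partners, 12 were in all 4 libraries, including Fkbp1b (calstabin 2, which binds the cardiac receptor), Trdn (triadin, which links it to calsequestrin) and Sri (sorcin, a calcium-binding regulator). Hrc was in 3 libraries, Jsrp1 in α-KG 2 alone, and S100a1 had no entry. The junctophilins Jph1, Jph2, Jph3 and Jph4, which hold the store against the surface membrane, were in all 4. The pump regulators Pln (phospholamban) and Sln (sarcolipin) were also in all 4, while Mrln and Strit1 had no entry.

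Of the pair of counter-ion channels of the store, Tmem38b was in all 4 libraries and Tmem38a was in α-KG 1 and α-KG 2. Among 12 genes of surface calcium channels, 9 were in all 4 libraries, 81.8% of the 11 with an entry. Of all listed genes, 62.8% were, and the counts per role are small. Cacna1s, the L-type channel of skeletal muscle, was in α-KG 1 and α-KG 2. Cacna1c, the L-type channel of the heart, had no entry under that or an older symbol. It may be among the 1860 listed genes without a symbol, so no lack of a peak is read from this. Of the 7 extrusion genes, 6 were in all 4, among them Slc8a1, the sodium-calcium exchanger of the heart, and Atp2b4 was in α-KG 2 alone. Of the 6 store-operated entry genes, 5 were in all 4, including the sensor Stim1.

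Of 13 genes of kinase, phosphatase and anchoring control, 12 were in all 4 libraries, among them Camk2d and Akap6, which act on the cardiac ryanodine receptor. Of 18 genes of IP3 production and receptor control, 14 were in all 4, Plcd3 was in PBS 2 and α-KG 2, and Plcb2 had no entry. Luminal chaperones had the lowest share, 40% of the 5 with an entry, beside 62.8% of all listed genes, and so few genes are a description only. Of the 6 genes, 2 (Canx and Hspa5) were in all 4. Pdia3 was in PBS 2 and both α-KG libraries, Erp44 was in α-KG 2 alone, and Hsp90b1 had no entry. Of 9 genes of mitochondrial calcium uptake, 6 were in all 4, including the uniporter Mcu. Smdt1 and Slc8b1 were in α-KG 2 alone.

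Genes in α-KG 2 alone recurred across these roles, as Atp2a1 did among the 10. They numbered 5 of the 94 with an entry (Atp2b4, Erp44, Jsrp1, Slc8b1 and Smdt1), beside 6.96% of all listed genes. The length of the α-KG 2 list moves with this pattern, and its part in the listing of Atp2a1 was not tested.

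The lists cannot check the cell type, since a silencing mark does not report expression. Of 12 markers of heart muscle cells, 6 were in all 4 libraries (among them Tnnt2, Actc1 and Nkx2-5), and Myh6 and Ttn had no entry. The 6 made up 60% of the 10 with an entry, beside 62.8% of all listed genes. In the order PBS 1, PBS 2, α-KG 1 and α-KG 2, the libraries named 6, 6, 7 and 9 heart muscle markers, 7, 6, 5 and 7 of 8 fibroblast markers, and 4, 6, 5 and 6 of 6 endothelial markers. They named 2, 5, 4 and 4 of 6 smooth muscle and pericyte markers, 4, 4, 4 and 3 of 6 immune markers, 4, 3, 4 and 5 of 6 skeletal muscle markers, and 4, 4, 4 and 5 of 5 neuronal and glial markers. The heart muscle counts were higher in both α-KG libraries, beside whole lists that held 76.9%, 82.2%, 80.8% and 85.5% of all listed genes in the same order. The added markers were Tnni3 in α-KG 1 alone and Myh7, Myl7 and Ckm in α-KG 2 alone, so 0 heart muscle markers were in both α-KG libraries but no control. In the other 6 marker lists the groups overlapped or tied. The part of these markers in the listing of Ryr2 was not tested.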

How the data were processed

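H3K27me3 was profiled in 2 control and 2 α-KG libraries, and groups and replicate numbers came from the labels. The deposited files are 1 list of genes per library, made by the authors, with Ensembl ID, symbol and domain names and no count or score. CASAVA, BWA, MACS2 and the build rn6 are named, per the submitters' processing notes. Their roles, the use of an input and the rule that assigned peaks to genes are unknown: not given in the sources used here.

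Python 3.11.15 (pandas 2.3.3, matplotlib 3.10.9) served to read the lists and draw the plots. Symbols were matched without regard to case, then by older RefSeq symbols, which placed 5 of the 100 calcium handling genes. Gene order and promoters come from RefSeq assembly GRCr8, used for names, order and sequence, since it differs from rn6. Where a gene had several windows, the one nearest its outer end was used. The members and lists were chosen with earlier results of these data known. Named genes were the 10 members, their neighbours where listing was partial, list genes that divided by treatment, up to 4 others per role, and those closest to Ryr2. Some genes are named beyond this rule and were chosen after their listing was seen. No test was made, because the rule used the listing. Protein sequences were not used here, and a few genes that this rule would name were left out.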

Additional observations from a re-analysis of the deposited data

How the results depend on the processing

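Leaving out 1 library at a time, the count of the 10 genes in both controls and neither α-KG library stayed at 1 (Ryr2) and the count in every library used stayed at 8. The reverse pattern ranged from 0 to 1, with Atp2a1 counted without α-KG 1. The difference in members listed per library (α-KG minus control, -0.5) ranged from -1 without α-KG 2 to 0 without α-KG 1. For the calcium handling list, genes in both controls and neither α-KG library ranged from 1 to 6, with 3 without α-KG 1 and 6 without α-KG 2. The reverse pattern ranged from 2 to 7, with 7 without α-KG 1 and 3 without PBS 2. Fewer libraries then had to share a pattern. Without α-KG 1, for example, the reverse pattern also takes in genes in α-KG 2 alone, which were 6.96% of all listed genes. The share of all listed genes with each looser pattern is not given here, so nothing is read from the higher counts. The difference for that list (0.5 genes) ranged from -3.5 without α-KG 2 to 4.5 without α-KG 1, with -1 without PBS 1 and 2 without PBS 2, and it was 0 with current symbols alone. Counting Ensembl IDs or current symbols alone left the counts of patterns as they were. With a replicate block the differences were -0.5 and 0.5, equal to the values without it by construction, and the labels tie the numbers to no shared culture or animal. The Ryr2 promoter exceeded 83.3% of windows when read before the start alone. With 5 neighbours per side, 56.6% of those with an entry were in all 4 libraries. Depth is unknown, so an absent listing bounds no level.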

Other observations

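The release channels had uneven domain names in the lists. The Ryr2 entry carried 14 names, Ryr1 10 and Ryr3 6, and the ion transport domain was named for Ryr2 and Ryr3 but not for Ryr1. Domain names for Ryr3 did not include the MIR motif. Counts of entries by domain therefore leave out relatives that are known to have the domain.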
